A study of Homo sapiens with 7 samples.

Results

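Long H3K27me3 domains were defined as the intervals of the H3K27me3 peak list that spanned 20000 bp or more. They were chosen by width alone, the end of an interval minus its start, and numbered 1502 of the 55270 intervals in the list. Their width, fold enrichment and q-value are therefore a description of the choice and are given without a test. According to the study, the list comes from PIXUL-ChIP-seq of HCT116, an established human colorectal carcinoma line grown in microplate wells. In this method, chromatin is sheared in the plate by ultrasound. Each of 7 antibodies gave 1 library from 1 well of 200000 crosslinked cells sonicated for 6 min in 100 μl, with no treatment or other cell state named. Lists for H3K4me1, H3K4me3, H3K9Ac, H3K36me3 and CTCF were set against the domains, and H3K27Ac was not analysed here. With 1 library per antibody, no value has a replicate error, shares carry 95% Wilson intervals that cover counting error only, and the sequencing depth is unknown.

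H3K27me3 is the histone mark written by the Polycomb repressive complex PRC2, whose catalytic subunit is EZH2, and it is bound by the complex PRC1. It lies over genes that are not transcribed in a given cell type and over the unmethylated CpG-rich promoters of developmental regulators, and it can spread from a nucleation site into blankets that cover whole genes. H3K4me3 and H3K9Ac mark active promoters, H3K4me1 marks enhancers and the sides of promoters, H3K36me3 is laid down along transcribed gene bodies, and CTCF binds DNA by sequence and can separate chromatin domains.

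A peak is called past the limits below where it met the cutoffs in the study's methods, a q-value under 0.001 with a fold enrichment over 2 for H3K27me3 and H3K4me1, or a q-value under 1e-10 with a fold enrichment over 5 for the other histone marks. The methods give no cutoff for CTCF, to which the stricter one was applied here. The fold enrichment is the ratio of ChIP signal to background that the peak caller gave for the whole interval. Of the 1502 domains, 315 were past these limits and 1187 were listed only. The cell type was checked in the H3K4me3 list alone, where 6 of 12 colon epithelial marker genes (KRT8, KRT18, KRT19, CDX2, CDH1 and EPCAM) had an H3K4me3 peak past the limits within 1000 bp of the transcription start site (TSS), against 0 of 8 T-cell, 1 of 8 fibroblast, 0 of 6 hepatocyte and 2 of 7 neuronal markers. The other 6 epithelial genes (GPA33, KRT20, LGALS4, VIL1, CDX1 and CDH17) had none. No marker gene of these 5 lists had its TSS in a long domain, and the neuronal marker gene RBFOX3 was the only one that overlapped one, so the check does not bear on the cell type of the H3K27me3 list. The interval names of the H3K27me3 list do not carry the cell line's name, whereas those of 4 of the other 5 lists do. They begin with NC5_HTON, while the names in all 5 other lists begin with AB and a number. What NC5_HTON stands for is not known, so the sample behind this list could not be checked.

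A set of 6 short sequences is shown to illustrate the CTCF sites at domain edges. Each is the CTCF core sequence in hg19 with its neighbouring bases, printed 5′ to 3′ on the strand of the match. The CTCF peak of highest fold enrichment within 5000 bp of an edge was taken for each domain, and the 6 widest domains in which that peak held the core are shown, among the chromosomes printed here. Distances are from the midpoint of the peak to the edge. Capitals mark the core.
chr14:22855982-22856013, plus strand, in an intron of the lncRNA gene TRD-AS1, 491 bp outside the widest domain: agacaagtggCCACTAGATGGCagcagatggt
chr10:122495471-122495502, minus strand, in an intron of the lncRNA gene LINC02930, 1359 bp inside a domain of 88602 bp: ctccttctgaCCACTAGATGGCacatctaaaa
chr12:55387190-55387221, plus strand, between annotated genes, 555 bp outside a domain of 74533 bp: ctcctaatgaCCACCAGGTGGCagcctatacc
chr12:67255108-67255139, minus strand, in an intron of GRIP1, 3756 bp inside a domain of 71725 bp: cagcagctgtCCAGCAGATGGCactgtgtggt
chr17:54556379-54556410, minus strand, in an intron of ANKFN1, 1192 bp outside a domain of 60196 bp: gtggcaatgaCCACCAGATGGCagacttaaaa
chr10:129362376-129362407, plus strand, between annotated genes, 286 bp outside a domain of 59312 bp: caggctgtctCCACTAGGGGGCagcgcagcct

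The domains covered 47.3 Mb, 1.53% of hg19 and 21.3% of the length of all H3K27me3 intervals. Their median width was 27006 bp, the middle 50% lay between 22682 and 34885 bp, and the widest measured 142519 bp. The smallest width class, from 20000 to 30000 bp, held 936 domains, and 6 domains were wider than 100000 bp. Fold enrichment ranged from 2.96 to 9.09 with a median of 3.50, and the median −log10 q-value was 2.54. At the limit of the rule, the narrowest domains measured 20002 bp (chromosome 17), 20006 bp (chromosome 10, in SORCS3), 20009 bp (chromosome 22, in MYO18B), 20015 bp (chromosome 15) and 20016 bp (chromosome 12). The widest intervals left out measured 19987 bp on chromosome 22, 19976 bp on chromosome 4, 19966 bp on chromosome 5, 19951 bp on chromosome 21 and 19948 bp on chromosome 12. The fold enrichment of these 10 intervals lay between 3.10 and 3.85, and those of the 5 inside and the 5 outside overlapped.

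**Figure D1:**
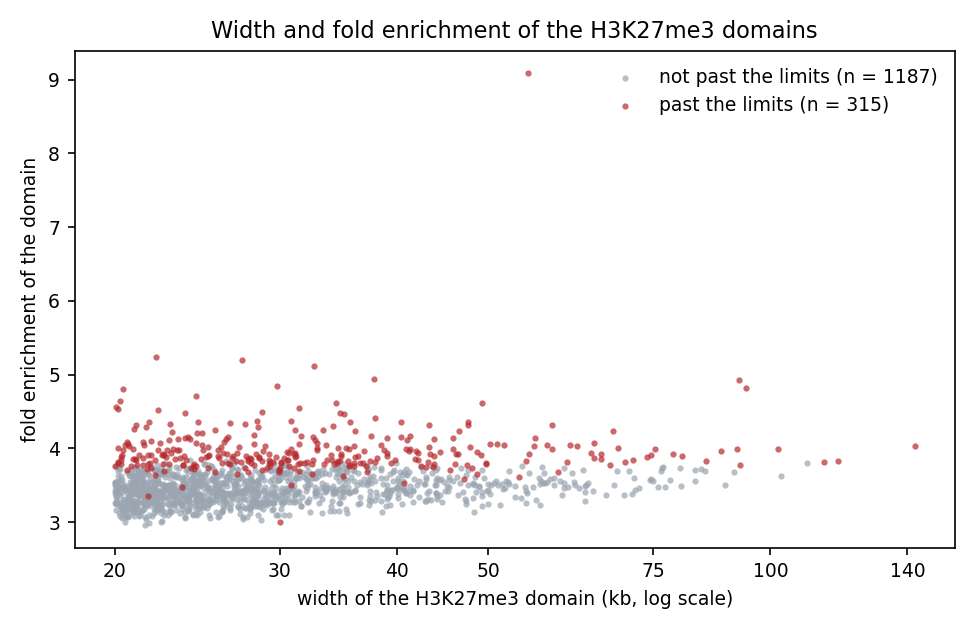
Width of each of the 1502 H3K27me3 domains in kb (horizontal, log scale) against its fold enrichment (vertical), 1 point per domain, with the 315 domains past the limits in red and the other 1187 in grey. Most points lie between 20 and 40 kb, and a single domain on chromosome 1 reaches 9.09.

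The widest domain ran over the T-cell receptor delta and alpha loci on chromosome 14 (hg19 22856508 to 22999026), with a fold enrichment of 4.03. It contained the start sites of 59 annotated genes, none of them of the protein-coding class, and among them the joining segments TRAJ16 to TRAJ61 and the lncRNA TRD-AS1. T-cell receptor segments are joined and expressed in T cells. Over all domains, 68 of the 177 annotated T-cell receptor segments (38.4%) had their start in a domain, in 8 domains, whereas 1 of 212 immunoglobulin segments did (IGKV1-9). Over all annotated genes the share was 1.33% (857 of 64449). Neighbouring segments under 1 domain are not independent counts.

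The next widest domain, 118188 bp on chromosome 12 (113156067 to 113274254), lay inside RPH3A, a synaptic vesicle protein gene, and held its TSS. A 113972 bp domain on chromosome 10 (130270609 to 130384580) contained no annotated TSS. The next, 109314 bp on chromosome 15 (60916233 to 61025546), lay inside the nuclear receptor gene RORA and was the widest domain without a listed peak of any other list. GRIP1, which encodes a scaffold of glutamate receptors, held a domain of 102720 bp with its TSS (chromosome 12, 66980343 to 67083062). These were followed by a 101977 bp domain on chromosome 17 (53688516 to 53790492) and a 94158 bp domain on chromosome 8 (6804470 to 6898627) over the alpha-defensin genes DEFA1, DEFA1B and DEFA3. Alpha-defensins are antimicrobial peptides of neutrophils and the intestine.

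The next was a 92888 bp domain on chromosome 22 (40243810 to 40336697) with the start sites of ENTHD1 and GRAP2, the latter an adaptor of T-cell signalling. It held an H3K4me3 and an H3K9Ac peak, 27618 bp inside the nearer edge and away from either coding TSS. RBFOX3, the neuronal splicing factor known as NeuN, held a domain of 92670 bp on chromosome 17 (77275329 to 77367998) with a fold enrichment of 4.93. Domains of 92062 bp on chromosome 10, of 91435 bp in ZBTB16 on chromosome 11 and of 89559 bp in SDK1 on chromosome 7 completed the 12 widest. Of these 12, 8 were past the limits, 8 held a CTCF peak past the limits, and 1 held an H3K4me1 peak past the limits.

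**Figure D2:**
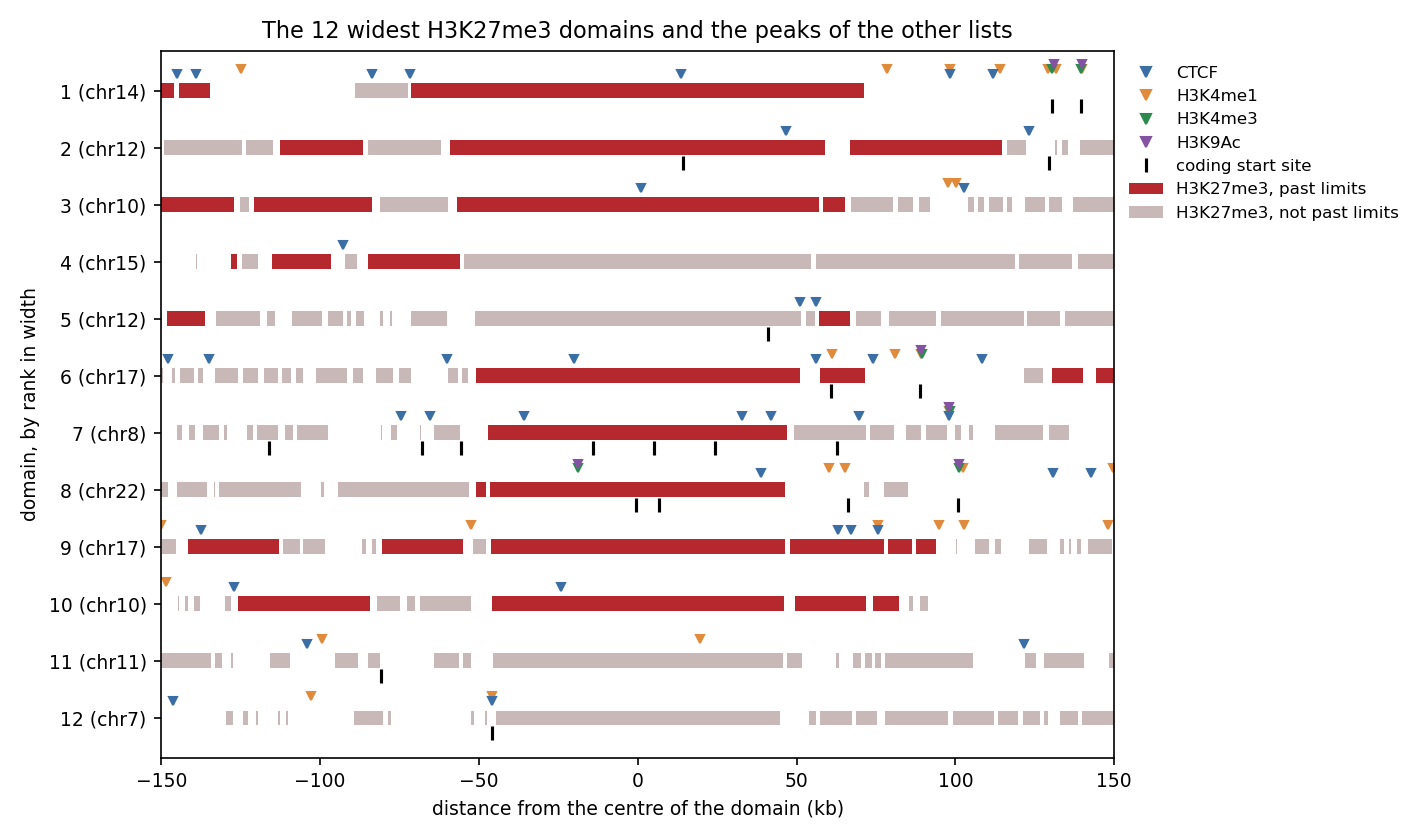
The 12 widest H3K27me3 domains, 1 row each, centred at 0 and drawn to scale with the sequence on both sides (horizontal axis in kb). Bars are H3K27me3 intervals, red where past the limits and pale where listed only, triangles are peaks of the other lists past the limits, and black ticks are protein-coding start sites. The domains hold few triangles, between 0 and 3 CTCF peaks each. Further H3K27me3 intervals lie on both sides of each domain except the widest, which has none on its right. The breaks between intervals differ in length.

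By fold enrichment the order was different. The highest value, 9.09, belonged to a 55161 bp domain in TTC34 on chromosome 1 (2579241 to 2634401), which ended in a run of unknown bases of hg19 and also overlapped 3 H3K4me1, 5 H3K9Ac and 9 CTCF listed peaks. The next, 5.24, was a 22162 bp domain on chromosome 3 (195211462 to 195233623) that overlapped listed peaks of all 5 other lists and contained no annotated TSS. TCHH, which encodes the hair follicle protein trichohyalin, lay in a domain of 5.20 on chromosome 1 (152075165 to 152102524). A domain of 5.11 on chromosome 16 held the lncRNA LINC01082, and one of 4.94 on chromosome 8 held the beta-defensin genes DEFB104A, DEFB105A, DEFB106A and DEFB107A. Of these 5 domains, the domain on chromosome 1 in TTC34 touched an assembly gap and 100% of the beta-defensin domain had a near-identical copy elsewhere in hg19.

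Near-identical copies, at an identity of 95% or more, covered at least 50% of the length of 47 domains (3.13%). These domains held 32 of the 205 protein-coding TSSs described below, and reads from such copies may not be assignable to 1 locus. Without these domains, the shares of domains that held a peak of another list were nearly the same, 12.9% for CTCF with and without them.

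The domains were spread unevenly over the chromosomes. The long arm of chromosome 10 held 111 domains, 1.202 per Mb of called bases, and 61 of the 315 domains past the limits. Chromosome 22 (1.15 per Mb), both arms of chromosome 16 (1.12 per Mb for 16q and 1.11 per Mb for 16p), both arms of chromosome 8 (0.968 per Mb for 8q and 0.960 per Mb for 8p) and 12p (0.951 per Mb) followed. Although 16p was dense in domains, none of its 39 was past the limits. Counting only domains past the limits, 10q had 0.661 per Mb and chromosome 22 had 0.430. They were followed by 17q (0.341), 19q (0.319), 12p (0.317) and 8q (0.292). The lists do not give DNA copy number, and its part in these densities was not tested. With all domains counted, the lowest autosomal densities were on 19p (0.164 per Mb), 4p (0.203 per Mb) and 4q (0.239 per Mb). No domain lay on chromosome X or Y. Chromosome X had 1379 H3K27me3 intervals, the widest of them 17068 bp, and the other lists also had low values there: the median fold enrichment of H3K4me3 peaks past the limits was 12.7 on Xp and 12.4 on Xq, against 21.8 on 10q and 21.1 over the list. For CTCF it was 8.44 on Xp, 8.41 on Xq and 10.6 on 10q. Their part in the lack of domains on X was not tested.

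**Figure D3:**
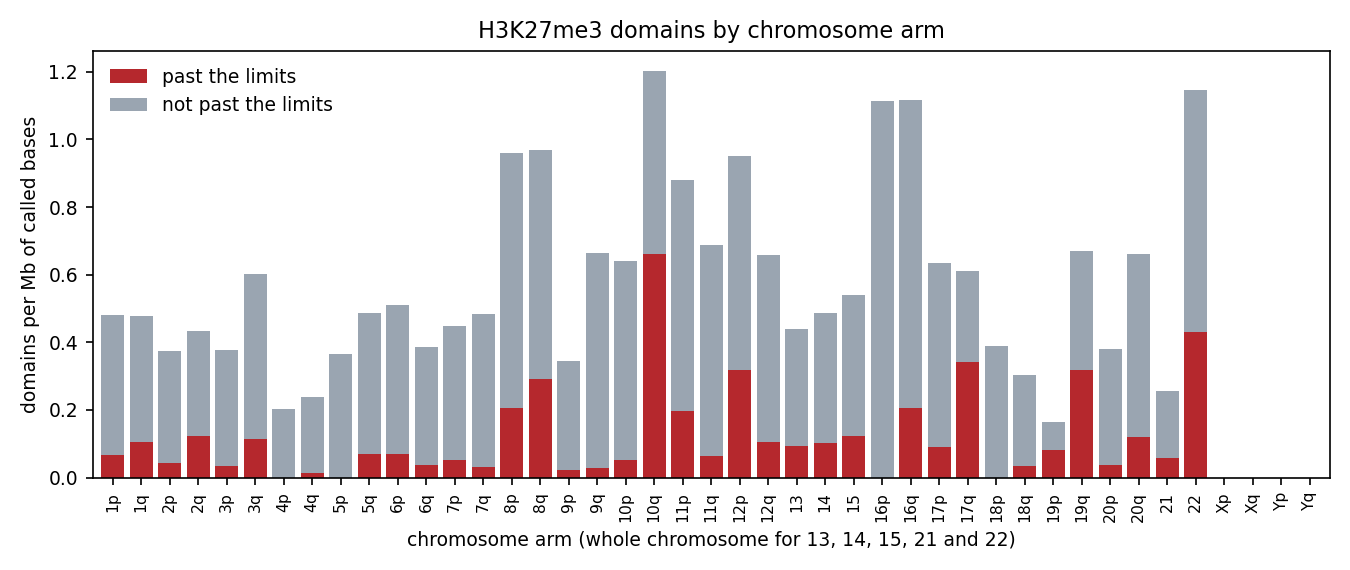
H3K27me3 domains per Mb of called bases (vertical) on each chromosome arm (horizontal), with domains past the limits in red and the others stacked in grey. Chromosome arm 10q reaches 1.202 per Mb, 19p has 0.164 per Mb, and X and Y have none.

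Most domains lay close to other H3K27me3 intervals. Of the 3004 edges, 82.5% had the next listed H3K27me3 interval within 5000 bp, the median break was 2154 bp and the shortest 1177 bp. With domains joined over distances up to 100000 bp, 1083 domains (72.1%) fell into 319 groups. The largest groups had 14 domains each, one over SORCS3 on chromosome 10, with 73.6% of a 601966 bp span inside domains, and one over TBX5 on chromosome 12, with 68.8% of 562251 bp. SORCS3 encodes a neuronal sorting receptor and TBX5 a T-box factor of heart and forelimb. Groups of 12, 11 and 10 domains followed at GRIP1, at GRIK3, a kainate receptor gene, and on chromosome 3 from 139657445 to 140323044, around CLSTN2.

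Many of the domains were inside protein-coding genes. Protein-coding genes covered 51.8% of the domain length and 45.6% of hg19, and 635 domains (42.3%) lay entirely within a protein-coding gene. These host genes numbered 296 and had a median length of 299331 bp, a length that the choice of domains of 20000 bp or more favours, since a host cannot be shorter than its domain. GRIP1 and CLSTN2, a postsynaptic cadherin-like protein gene, held 9 domains each. TTC28, MAST4, SLIT3, SORCS3 and the cation channel gene TRPM3 held 8 each, and the ryanodine receptor gene RYR3, KALRN, ATP8A2, PLXNA4 and PHACTR1 held 7 each. Of RPH3A, 80.5% lay in domains, of MYO18B 60.8% and of the B-cell factor gene EBF1 60.6%. An H3K4me3 peak was at the TSS of 42 of the 296 host genes (14.2%, 10.7 to 18.6%), KALRN and ZFHX3 among them, against 59.1% of all protein-coding TSSs. A further 629 domains (41.9%) overlapped no protein-coding gene, and 274 (18.2%) overlapped no annotated gene of any kind.

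In base composition the domains were close to the genome, with 41.6% GC against 40.9%. They contained 8.66 CpG dinucleotides per kb, below the 9.85 of hg19 and the 10.5 of the flanks, each flank as wide as its domain and without listed H3K27me3. The 315 domains past the limits had 9.85 CpG per kb.

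Protein-coding start sites were sparse in the domains. Of all 20163 protein-coding TSSs, 1.02% (205) lay in a domain, in 159 domains, and the other 1343 domains held none. The density was 4.34 TSSs per Mb, against 7.38 per Mb in the flanks and 7.05 per Mb over hg19. In all, 539 protein-coding genes overlapped a domain and 102 lay entirely inside one. Of 18702 lncRNA genes, 270 (1.44%) started in a domain, a density of 5.71 per Mb against 6.54 per Mb over hg19. Unprocessed pseudogenes were at 1.46 per Mb in the domains and 0.882 per Mb over hg19. Of 3049 miRNA genes, 34 (1.12%) started in a domain, MIR204 among them, against 1.33% of all annotated genes. The miRNA density was 0.719 per Mb in the domains and 1.07 per Mb over hg19.

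By gene family, olfactory receptors gave the largest number of start sites in domains among the lists of protein-coding genes used. Olfactory receptors, the odour receptors of the nasal epithelium, gave 28 of 399 members, in 19 domains, such as OR52J3, OR52E2 and OR52E1 in a domain of 83199 bp and OR52P1, OR56B1 and OR52N4 in one of 48666 bp on chromosome 11 (5739005 to 5787670). Only 9 of these 28 TSSs were in domains past the limits. Voltage-gated ion channels gave 4 of 129 (SCN9A, CACNG2, KCNK16 and KCNQ3), although 24 overlapped a domain. Over all protein-coding genes, 539 of 20163 overlapped one, and gene length was not taken into account. Neurotransmitter receptors gave 4 of 105, among them the dopamine receptor gene DRD2, the serotonin receptor gene HTR2A and the glutamate receptor gene GRM8. Domains past the limits held 2 of the ion channel TSSs and 1 of these receptor TSSs, that of HTR2A.

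Of the developmental families, HOX gave 0 of 39, PAX 0 of 9, forkhead 0 of 52, T-box 0 of 17, GATA 0 of 6, ZIC 0 of 5 and WNT ligands 0 of 19. Other homeobox factors gave 3 of 137 (BSX and SATB1 among them), tissue bHLH factors 2 of 45 (NEUROD4, of neurons, and MYF5, of skeletal muscle), SOX factors 1 of 20 (SOX6), BMP and GDF ligands 1 of 32 (BMP5) and FGF ligands 1 of 22 (FGF5). Domains past the limits held 2 of these homeobox TSSs and those of NEUROD4 and BMP5. The domains at SATB1, MYF5, SOX6 and FGF5 were listed only. Keratins (0 of 55), keratin-associated proteins (0 of 94), protocadherins (0 of 66), cadherins (0 of 23), hedgehog ligands (0 of 3), ZNF genes (0 of 509), core histones (0 of 81), cytoplasmic ribosomal proteins (0 of 88) and Polycomb genes (0 of 27) had no TSS in a domain. Counted by overlap of any part of the gene with a domain, other homeobox factors gave 6, PAX 2 and T-box 1. By the same count, BMP and GDF ligands, cadherins and ZNF genes gave 3 each and FGF ligands 2, and all protein-coding genes gave 539 of 20163. With 1.02% of all protein-coding TSSs in domains, a TSS count of 0 in a small family is no difference from the background.

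Further families were counted after the genes in the domains had been seen, so high shares were built into their choice. Over all protein-coding TSSs the share was 1.02%. Of the defensin genes, 12 of 46 started in a domain. DEFB104A to DEFB107A and DEFB104B to DEFB107B gave 4 of these TSSs each. Their domains on chromosome 8 lay 100% and 97.9% in near-identical copies, where reads may not be assignable to 1 locus. Of the late cornified envelope genes, whose proteins harden the outer epidermis, 7 of 19 started in a domain, with LCE1A, LCE1B, LCE1C and LCE1D in a domain of 36327 bp. CEACAM genes gave 3 of 12, each in a domain of its own: CEACAM4, CEACAM7 and CEACAM5, the carcinoembryonic antigen. The leukocyte receptor genes LILRA1, LILRA2 and LILRB1 were 3 of 10, C-type lectin-like genes 4 of 31, Siglecs 1 of 12 and SSU72L genes 3 of 5. Of the deubiquitinase genes USP17L, 14 of 26 were in 2 domains on chromosome 4, the larger with 10 TSSs (9221129 to 9274494), 100% of it in near-identical copies and 148 bp from an assembly gap. Domains past the limits held 11 of the 12 defensin TSSs, 3 of SSU72L, 2 of CEACAM, 2 of C-type lectin-like and 1 of LILR genes. They held no TSS of the late cornified envelope, USP17L or Siglec genes, whose domains were listed only. No member of these added families had H3K4me3 at its TSS in a domain. Outside the domains the mark was also nearly absent from these families. It was at the TSS of 2 of the 31 C-type lectin-like genes and of no member of the other added families.

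Active marks were rare at the start sites in the domains. Within 1000 bp, an H3K4me3 peak past the limits was found at 7 of the 205 TSSs (3.41%, 1.66 to 6.88%), whereas over all protein-coding genes the share was 59.1%. For H3K9Ac the shares were 1.95% (4 TSSs, 0.761 to 4.91%) and 58.5%, and for H3K4me1 they were 5.85% (12 TSSs, 3.38 to 9.95%) and 49.1%. Shorter H3K27me3 intervals of 5000 to 20000 bp that were past the limits held 77 TSSs, of which 19.5% (12.2 to 29.7%) had H3K4me3, 18.2% (11.2 to 28.2%) H3K9Ac and 35.1% (25.3 to 46.2%) H3K4me1. With the long domains held to the limits as well, 3.896% of their 77 TSSs had H3K4me3 (1.33 to 10.8%). All 10823 intervals of 5000 to 20000 bp were added as a further set after the data had been seen, and were closer to the long domains: of their 475 TSSs, 9.47% had H3K4me3 (7.16 to 12.4%), 5.89% H3K9Ac (4.11 to 8.39%) and 15.8% H3K4me1 (12.8 to 19.3%). Against this set, the Wilson intervals of the long domains overlapped for H3K9Ac and did not overlap for H3K4me3 and H3K4me1.

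**Figure D4:**
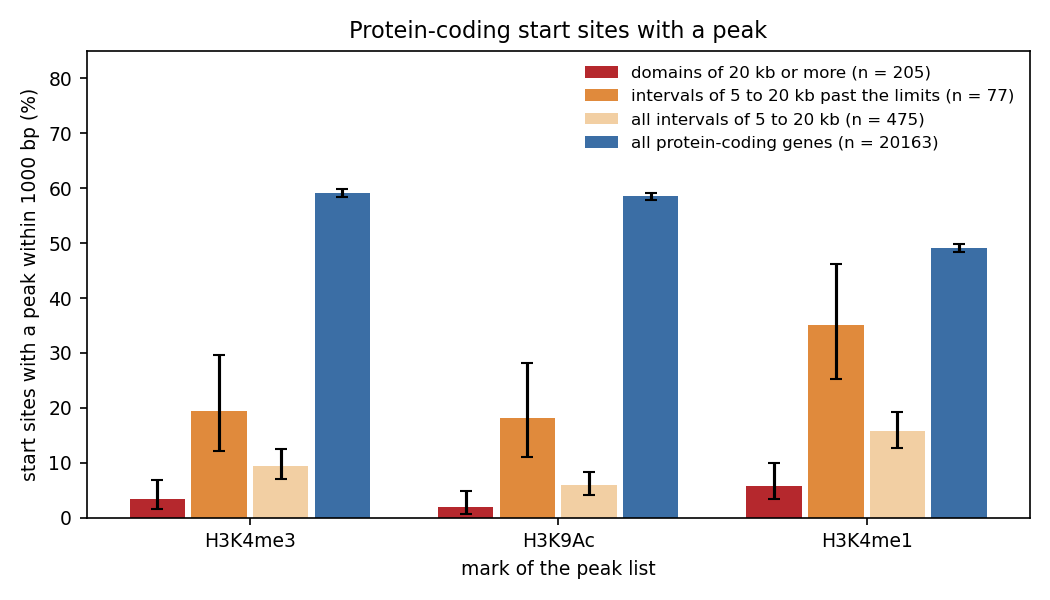
Share of protein-coding start sites with a peak past the limits within 1000 bp (vertical, %) for H3K4me3, H3K9Ac and H3K4me1 (horizontal), with bars for the 205 start sites in the long domains, the 77 in intervals of 5 to 20 kb past the limits, the 475 in all intervals of 5 to 20 kb and all 20163, and error bars for 95% Wilson intervals. The long domains have the lowest bar for each mark, between 1.95% and 5.85%.

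The 7 genes with H3K4me3 were BCL11A, GRM8, LRIG1, PMEPA1, SATB1, SERTAD4 and WSCD2. Of these, BCL11A, GRM8, LRIG1 and SERTAD4 also had H3K9Ac past the limits. The H3K27me3 domains at BCL11A, PMEPA1 and SERTAD4 were past the limits, whereas those at GRM8, LRIG1, SATB1 and WSCD2 were listed only. BCL11A and SATB1 encode transcription regulators of lymphoid and other lineages, LRIG1 a negative regulator of receptor tyrosine kinases and a marker of intestinal stem cells, and PMEPA1 a feedback inhibitor of TGF-beta signalling. All 7 also had H3K4me1, as did HEY2, IGSF11, KCNQ3, LYPD1 and SCN9A. These 5 had H3K4me3 peaks that were listed but not past the limits, and all but SCN9A had such an H3K9Ac peak.

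Start sites in domains were mostly CpG-poor. In the 500 bp around the TSS, 43 of the 205 (20.98%, 16.0 to 27.1%) exceeded 50% GC and a ratio of observed to expected CpG of 0.6, against 28.2% of the 475 in shorter intervals (24.4 to 32.4%) and 67.03% of all protein-coding TSSs. With both sets held to the limits, the shares were 16.9% of 77 in domains (10.1 to 26.8%) and 41.6% of 77 in shorter intervals (31.2 to 52.7%). The H3K4me3 shares of these 2 sets, given above, thus compare start sites of unlike CpG content. All 7 TSSs with H3K4me3 were among the 43 CpG-rich TSSs in domains (16.3%, 8.12 to 29.97%), whereas 82.3% of all CpG-rich TSSs had H3K4me3. Of the 162 CpG-poor TSSs in domains, 0 had H3K4me3, which allows a share of up to 2.32% by the Wilson interval, and the share over all CpG-poor TSSs was 12.1%. The promoter of SERTAD4 is shown as an example of a CpG-rich start site in a domain with H3K4me3, printed from hg19 on the plus strand from 250 bases before the TSS to 30 bases into the gene, with each CpG in capitals.
SERTAD4, chr1:210405891-210406170, with H3K4me3, H3K9Ac and H3K4me1 and 22 CpG: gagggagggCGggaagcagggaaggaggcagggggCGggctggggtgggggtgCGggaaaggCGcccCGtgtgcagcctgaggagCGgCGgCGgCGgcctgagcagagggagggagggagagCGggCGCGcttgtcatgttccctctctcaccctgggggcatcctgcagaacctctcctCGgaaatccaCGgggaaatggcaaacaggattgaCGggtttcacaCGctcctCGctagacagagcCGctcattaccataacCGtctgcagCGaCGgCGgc

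Over their whole length the domains held few peaks of the other lists. Of the 1502 domains, 1062 (70.7%, 68.4 to 73.0%) overlapped no listed peak of any other list and 1272 (84.7%) none past the limits. No domain held an H3K36me3 peak past the limits, a list in which only 90 peaks passed, and 3 held a listed one (0.1997%, 0.0680 to 0.586%). H3K9Ac peaks past the limits were in 11 domains (0.732%, 0.409 to 1.31%), H3K4me3 in 16 (1.07%, 0.657 to 1.72%) and H3K4me1 in 55 (3.66%, 2.82 to 4.74%). CTCF was the most frequent, in 194 domains (12.9%, 11.3 to 14.7%), and 323 domains (21.5%) held a listed CTCF peak without a listed peak of the 4 histone marks. The 315 domains past the limits had higher shares, 8.89% for H3K4me1, 3.81% for H3K4me3, 2.54% for H3K9Ac and 23.8% for CTCF, and were also wider, with a median of 30716 bp.

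By peak midpoints per Mb, H3K4me1 was at 1.08 in the domains, 8.34 in the flanks and 11.3 over hg19. H3K4me3 was at 0.254, 2.50 and 4.46, and H3K9Ac at 0.127, 2.44 and 4.45. Listed H3K36me3 intervals were at 0.0634 in the domains, 3.53 in the flanks and 14 over hg19. CTCF differed from the histone marks: it was at 3.89 in the domains and 8.58 over hg19, but at 19.6 in the flanks. Densities below those of hg19 were not limited to the long domains. All 10823 H3K27me3 intervals of 5000 to 20000 bp had 2.26 H3K4me1, 0.608 H3K4me3, 0.399 H3K9Ac and 3.38 CTCF midpoints per Mb. Such intervals past the limits had 10.05, 3.23, 2.63 and 8.01 per Mb, in the same order. The long domains past the limits had 2.38, 0.706, 0.353 and 6.18 per Mb. Inside the domains the CTCF midpoints were spread along the length, with between 33 and 43 in each of 5 equal segments of the domain length.

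The H3K4me3 peaks in domains had a median fold enrichment of 9.02, against 21.1 for all H3K4me3 peaks past the limits. Of the 16 domains, none held more than 2. At PELI2, IGF1R, KALRN and PRKCQ the peak crossed the edge of the domain, with its midpoint outside and between 5.15% and 43.95% of its length inside. One peak of 2127 bp on chromosome 1 spanned the break between 2 neighbouring domains. Far from the nearer edge lay the peaks at WSCD2 (29203 bp), PMEPA1 (28270 bp), BCL11A (20956 bp) and SATB1 (16737 bp). The largest share of a domain under H3K9Ac was 17.0%, in the TCHH domain, where H3K9Ac (4648 bp, fold enrichment 9.41) and H3K4me3 (4591 bp, 8.50) covered part of the gene but not the 1000 bp around its TSS. LRIG1 (7.85%), BCL11A (7.61%), SERTAD4 (6.57%) and PELI2 (2.72%) followed.

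The numbers of CTCF peaks past the limits per domain did not exceed 3. The alpha-defensin domain, a 29820 bp domain in RBFOX3 on chromosome 17 and a 24179 bp domain among T-cell receptor variable segments on chromosome 14 (22313544 to 22337722) had 3 each. A 78713 bp domain on chromosome 6 and a 76592 bp domain on chromosome 8 with the lncRNA LINC00529 had 2 each. The CTCF core sequence was in 36 of the 184 CTCF peaks with a midpoint in a domain (19.6%, 14.5 to 25.9%), in 65 of the 258 within 5000 bp of an edge (25.2%, 20.3 to 30.8%) and in 22.4% of all 24536 CTCF peaks past the limits. The Wilson intervals of both sets included the share of the whole list. The 6 sequences printed above are from the 65 at edges.

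Across the edges, CTCF and H3K4me1 changed in density within 2500 bp. H3K4me1 was at 0.932 per Mb in the last 2500 bp inside and 5.20 per Mb in the first 2500 bp outside. CTCF stood between 3.46 and 4.26 per Mb in the inner 10000 bp, at 20.3 per Mb in the first 2500 bp outside and between 7.08 and 11.0 per Mb from there to 50000 bp. Protein-coding TSSs were at 3.33 per Mb in the last 2500 bp inside and 9.07 per Mb in the first 2500 bp outside. The first 1177 bp outside a domain hold no H3K27me3 by construction, while the bins beyond include neighbouring H3K27me3 intervals. Listed H3K36me3 was at 0.133 per Mb in the first 5000 bp outside and at 3.21 per Mb between 47500 and 50000 bp. The next H3K4me3 peak past the limits outside an edge was at a median distance of 372850 bp, and the next CTCF peak at 89592 bp. For all intervals of 5000 to 20000 bp these medians were close to those, at 379617 and 94896 bp. They were 250694.5 and 59338.5 bp for domains past the limits, and 245013 and 54143 bp for intervals of 5000 to 20000 bp past the limits.

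**Figure D5:**
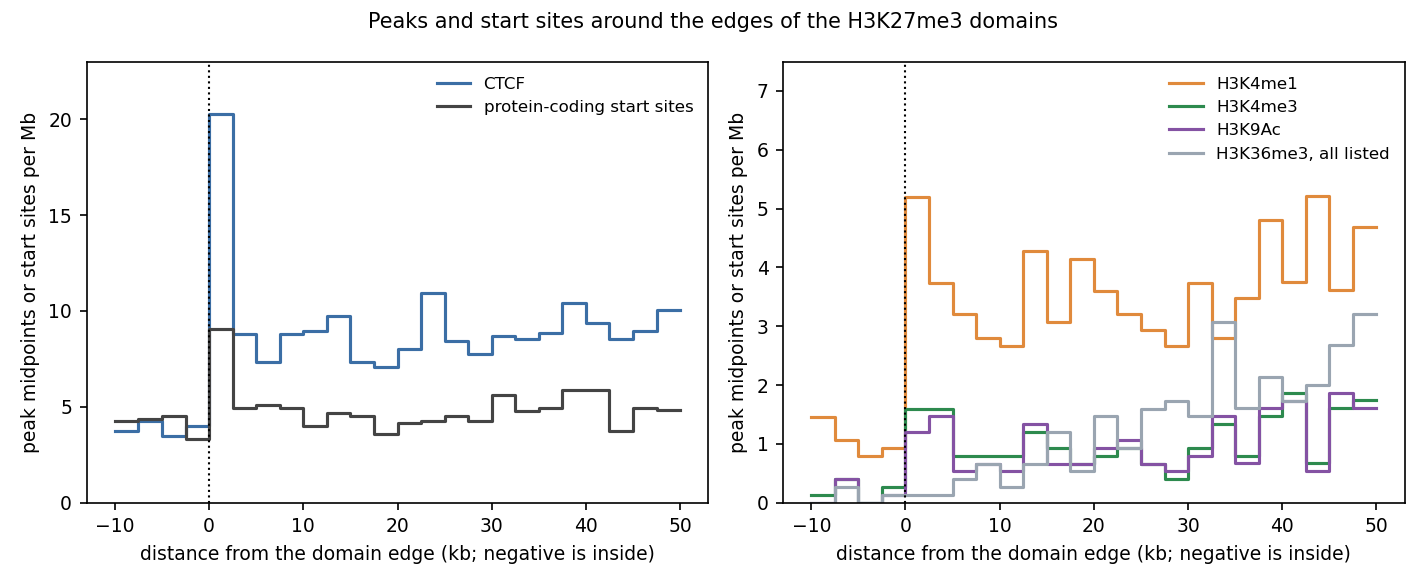
Peak midpoints or protein-coding start sites per Mb (vertical) in bins of 2500 bp by distance from the nearest edge of the 1502 domains (horizontal, kb, negative inside), with CTCF and start sites on the left and H3K4me1, H3K4me3, H3K9Ac and all listed H3K36me3 on the right. CTCF reaches 20.3 per Mb in the first bin outside, against 3.99 in the last bin inside.

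A CTCF peak past the limits lay within 5000 bp of 258 of the 3004 edges (8.59%, 7.64 to 9.64%), outside the domain at 210 and inside at 56. At the edges of domains past the limits the share was 14.3%, at those of 5000 to 20000 bp intervals past the limits 15.04% (13.3 to 16.9%), and at those of all intervals of 5000 to 20000 bp 7.25% (6.92 to 7.61%). The Wilson interval for domains past the limits, 11.8 to 17.2%, overlapped that of the shorter intervals past the limits. Leaving out other listed H3K27me3, CTCF outside the 2478 edges with a neighbour within 5000 bp was at 26.7 per Mb in the first 2500 bp, 13.3 per Mb from 2500 to 5000 bp and 17.9 per Mb from 10000 to 25000 bp. Outside the 526 edges without such a neighbour it was at 17.5, 22.8 and 20.3 per Mb. At these 526 edges, no step of CTCF above the surrounding H3K27me3-free sequence was seen in the first 2500 bp.

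The short breaks beside the domains were examined in addition. There were 2283 breaks of up to 5000 bp between a domain and the next listed interval, with a median of 1873 bp and 5.07 Mb in all. A CTCF peak past the limits overlapped 132 of them (5.78%, 4.90 to 6.82%), against 958 of 28685 breaks between 2 shorter intervals (3.34%, 3.14 to 3.55%), whose median was 2019 bp. By midpoints these were 25.4 and 13.6 CTCF peaks per Mb. H3K4me3 peaks overlapped 5 of the breaks beside domains (0.219%) and 99 of the others (0.345%), and H3K4me1 peaks 27 (1.18%) and 512 (1.78%). The breaks beside domains held 46 protein-coding TSSs, 9.07 per Mb, and 4 of these had H3K4me3. Those between 2 shorter intervals held 415, 6.08 per Mb, and 60 of these had H3K4me3. Breaks are not replicates of one another.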

How the data were processed

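ChIP-seq of 7 antibodies in HCT116 cells was reported for 1 well each, and the peak lists of 6 were used. The authors used BWA 0.7.12 for alignment to hg19 and MACS2 in broad mode, with a cutoff of 0.1. The submitters' processing notes instead list MACS 1.4.2. The methods describe paired-end reads and the series text single-end reads. The authors deposited, for each peak, its fold enrichment, a linear ratio of the whole peak over background, together with a −log10 p-value and a −log10 q-value. The lists hold no read counts, so depth and its effect on number and width of peaks are unknown. The methods name no limits for CTCF, and those of most histone marks were applied to it.

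Long domains were the intervals of at least 20000 bp. Members and gene lists were chosen with earlier results of these data known. Domains named were the 12 widest, the 5 highest by fold enrichment, the 5 on each side of the width limit, the 5 richest in protein-coding TSSs, in CTCF peaks and in H3K9Ac, and the widest without other peaks. No domain had 3 or more H3K4me3 peaks. Hosts and groups named were the largest. CTCF sequences of chromosome 8 were not printed. The promoter printed was chosen after the values were seen. Some genes and sequences are not reported here. Peaks overlapped by at least 1 bp, and TSSs were those of the canonical transcript in GENCODE 44 on hg19. Chromosome names and ends fitted hg19, with 0 intervals past a chromosome end. Copies were found with minimap2 2.31 as alignments of the domains to hg19. Overlaps were tested on simulated data and against bedtools 2.31.1 for the 5 lists, with 0 different. Python 3.11.15, pandas 2.3.3, scipy 1.17.1 and pyfaidx 0.9.0.4 were used. No test was made between conditions.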

Additional observations from a re-analysis of the deposited data

How the results depend on the processing

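Of 93 alternative values, 49 stayed within 1.5 times the count or within the Wilson interval and 44 moved beyond. The number of domains was 2637 at a width limit of 15000 bp, 566 at 30000 bp, 315 past the limits of the methods and 3637 with intervals within 5000 bp merged, and the length covered was 24.8, 11.3 and 201.1 Mb under the last 3. The share of TSSs with H3K9Ac was 5.37% with all listed peaks, and no other TSS share moved. The shares of domains with a peak of H3K4me1, H3K4me3, H3K9Ac and CTCF were 6.86, 2.06, 3.06 and 26.2% with all listed peaks, 8.89, 3.81, 2.54 and 23.8% for domains past the limits, and 8.47, 2.14, 1.76 and 25.8% after merging. At a width limit of 30000 bp they were 5.30% for H3K4me1, 1.77% for H3K4me3 and 17.8% for CTCF, and CTCF was in 10.2% at 15000 bp. With at least 50% of the peak inside they were 2.80% for H3K4me1, 0.399% for H3K9Ac and 11.3% for CTCF. With all listed peaks, densities per Mb in the domains and flanks were 2.33 and 13.1 for H3K4me1, 1.02 and 7.63 for H3K9Ac, 0.0634 and 3.53 for H3K36me3 and 9.83 and 30.7 for CTCF, and H3K4me3 was at 0.634 in the domains. H3K36me3 was at 0.0110 per Mb in flanks of 100000 bp. CTCF was at 5.39% of edges within 2000 bp, 13.8% within 10000 bp, 15.3% with all listed peaks and 10.8% at the 526 edges without a close neighbour, an alternative chosen after seeing the data. The domains contained 102 genes entirely and 205 TSSs in place of 539 genes overlapped, and 1 mismatch put the CTCF core in 64.1% of peaks. With flanks of 20000 bp, of 100000 bp or of the domain's width, and with all listed peaks, H3K4me1, H3K4me3, H3K9Ac and CTCF were less dense in the domains than in the flanks. Each mark has 1 library, so no replicate could be left out.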

Other observations

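A CTCF peak past the limits lay within 1000 bp of 6 protein-coding TSSs in domains, those of CEACAM5, ENSG00000267881, GRM8, IGSF11, OR52N2 and VIP. Of these 6 TSSs, GRM8 was the only one that also had H3K4me3 past the limits. Over all protein-coding TSSs, 13.6% had such a CTCF peak, and over the 205 in domains 2.93% (95% Wilson interval 1.35 to 6.24%).

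Breaks of up to 5000 bp between 2 long domains numbered 195. They held 9 protein-coding TSSs, or 22.2 per Mb, 1 of them with H3K4me3, and 10 overlapped a CTCF peak past the limits (5.13%, 2.81 to 9.18%).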
